A study of Rattus norvegicus with 6 samples.

Results

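SNARE proteins are the membrane-fusion machinery of eukaryotic cells. A SNARE of the R class on a vesicle pairs with SNAREs of the Qa, Qb and Qc classes on the target membrane, the helices zip together, and the membranes merge. The NSF ATPase and its SNAP adaptors then take the bundle apart, and Sec1/Munc18 (SM) proteins and tethering complexes decide when and where it forms. Each membrane of the cell has its own set. In neurons a plasma membrane syntaxin, SNAP-25 and synaptobrevin drive transmitter release at the synapse, other SNAREs fuse endosomes with each other and with lysosomes, and a further set carries cargo between the endoplasmic reticulum (ER) and the Golgi apparatus. The transcripts of 36 SNARE genes were examined among the 17066 genes of the expression table. They were taken by symbol: the syntaxins (Stx), the vesicle-associated membrane proteins (Vamp), Vti1a, Gosr1, Gosr2, Bet1, Bet1l, Sec22a, Sec22b, Snap23, Snap25, Snap29, Snap47, Ykt6, Use1 and Bnip1. By the membranes on which the proteins are known to act, 13 were grouped as plasma membrane, 11 as endosomal and 12 as ER-Golgi. The SNAREs of the trans-Golgi network, Stx6, Stx16, Vamp4 and Vti1a, were counted as endosomal. Stx10, Vti1b and Sec22c were not analysed here.

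The RNA came from primary hippocampal neuron cultures of embryonic day 18 Sprague-Dawley rats. The neurons were infected with lentivirus at day in vitro (DIV) 5 to 6 and lysed at DIV 14. Cyclin Y (CCNY), a cyclin tethered to membranes, was the gene manipulated. The EGFP group received a virus for the fluorescent protein alone, the CCNY-WT group a virus for wild-type CCNY with EGFP, and the CCNY-shRNA group a virus for a short hairpin RNA against CCNY with EGFP, with 2 libraries in each of the 3 conditions. All groups were thus infected and carried EGFP, and a virus with a hairpin that targets no gene was not analysed here. Poly(A) RNA was sequenced, and the values are FPKM, fragments per kilobase of transcript scaled to the mapped fragments of the library, so that levels compare between genes of different length.

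Ccny itself was listed at 43.1 and 42.3 FPKM with EGFP alone, 108 and 109 with CCNY-WT, and 5.98 and 6.19 with CCNY-shRNA, the order that the labels give. In limma, the model fitted across all genes, its log2 change from EGFP was 1.35 in CCNY-WT (adjusted p = 0.000462) and -2.81 in CCNY-shRNA (adjusted p = 1.57e-06). The summed FPKM of 12 neuron markers lay between 4788 and 4992 in the 6 libraries and that of 9 astrocyte markers between 472 and 580.3. Of 10 microglial markers, 9 stayed under an FPKM of 1 in every library, with Aif1 and Cx3cr1 at 0. Sox10 of the oligodendrocyte lineage and Cldn5 and Cdh5 of the endothelium were also listed at 0. The table gives no read counts. The steps in the values of weak genes put the depths at 1, 1.09, 1.33, 0.933, 0.819 and 1.15 times that of EGFP replicate 1, in the order EGFP, CCNY-WT, CCNY-shRNA. The labels do not say that libraries of a group came from separate cultures, so p-values measure the spread between these libraries only. In bulk RNA, fewer cells of a type and less RNA per cell cannot be told apart.

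The sequences before the start sites of 3 endosomal members are given here. In CCNY-shRNA against EGFP, 9 members lay past an unadjusted p of 0.05 (limma), 3 in each compartment. Stx8 was the only member past the adjusted threshold, and Stx7, its partner in the late endosomal complex, and Stx12, a syntaxin of early and recycling endosomes, were the other endosomal members past an unadjusted p of 0.05. Each sequence is the 250 bases upstream of the RefSeq start on the GRCr8 assembly, read 5′ to 3′ in the direction of transcription. Capitals mark matches to the motifs that were searched on both strands.
Stx8, chr10:53154422-53154671, plus strand: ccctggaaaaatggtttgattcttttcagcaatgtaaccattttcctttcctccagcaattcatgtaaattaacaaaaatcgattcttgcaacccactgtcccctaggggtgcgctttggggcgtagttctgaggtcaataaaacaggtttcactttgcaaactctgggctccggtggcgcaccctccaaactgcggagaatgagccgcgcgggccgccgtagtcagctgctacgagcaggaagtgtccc
Stx7, chr1:23056466-23056715, minus strand: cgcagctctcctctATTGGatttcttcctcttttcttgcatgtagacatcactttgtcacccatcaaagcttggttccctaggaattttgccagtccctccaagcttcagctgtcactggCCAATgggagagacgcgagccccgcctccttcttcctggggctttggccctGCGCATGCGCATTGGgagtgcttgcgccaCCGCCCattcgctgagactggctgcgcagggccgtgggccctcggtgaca
Stx12, chr5:150376347-150376596, minus strand: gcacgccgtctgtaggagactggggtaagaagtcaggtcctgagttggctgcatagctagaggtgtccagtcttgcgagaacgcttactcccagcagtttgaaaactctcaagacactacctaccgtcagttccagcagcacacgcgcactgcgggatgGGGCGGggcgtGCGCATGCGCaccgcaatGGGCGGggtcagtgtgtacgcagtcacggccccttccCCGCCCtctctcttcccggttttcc

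The motifs were the NRF1 palindrome (the half-site GCGCA followed directly by TGCGC), the GC box GGGCGG, the CCAAT box CCAAT, the E-box CACGTG and the cAMP response element TGACGTCA. Stx7 held the NRF1 palindrome at position 172 of the window and Stx12 at position 171, each near a GC box, and the matches in the printed windows did not overlap. No motif of the search was found in the Stx8 window. Among the 32 members with an upstream sequence, 2 held the NRF1 palindrome (6.25%), against 0.762% of 33469 upstream sequences of the genome. The GC box was found in 22 members (68.8%), against 30.5% of all. The E-box was found in Snap29 and Stx6 (6.25% against 5.59%), the CCAAT box in 34.4% against 34%, and the cAMP response element in Vamp1 alone (3.12% against 1.59%). Members had a median of 17.5 CpG dinucleotides in the window, against 5 over all sequences, and the median was 21 for plasma membrane, 17 for endosomal and 17 for ER-Golgi members. The 33469 sequences were not restricted to genes expressed in the culture or matched for CpG content. The differences therefore cannot be read as particular to SNARE genes. These matches describe letters, not binding.

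The SNAREs of transmitter release dominated the family. Across the 6 libraries, plasma membrane members made up 66.2% to 66.8% of the summed FPKM of all 36 genes, endosomal members 19.2% to 19.9% and ER-Golgi members 13.7% to 14.3%. No share set the conditions apart by as much as 1 percentage point.

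Mean levels over the 6 libraries exceeded 100 FPKM for 5 genes, among them Vamp2, Snap25, Stx1a and Stx7, lay from 10 to 100 for 23, from 1 to 10 for 4, and at or under 1 for 4. In EGFP, means were highest for Vamp2 (554 ± 19.8 FPKM, SD, n = 2) and Snap25 (500.1 ± 7.12), and those of Stx1a (153 ± 0.28), Stx7 (152 ± 6.96), Stx12 (89.9 ± 1.47) and Ykt6 (65.3 ± 1.13) followed in this order. The replicates of Stx1a and Stx7 overlapped, so these neighbours could not be ordered. In all, 17 of the 35 neighbouring pairs overlapped, most of them between 15 and 30 FPKM, where Stx4, Snap29, Stx5, Snap47 and Use1 lay within the spread of their libraries.

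**Figure D1:**
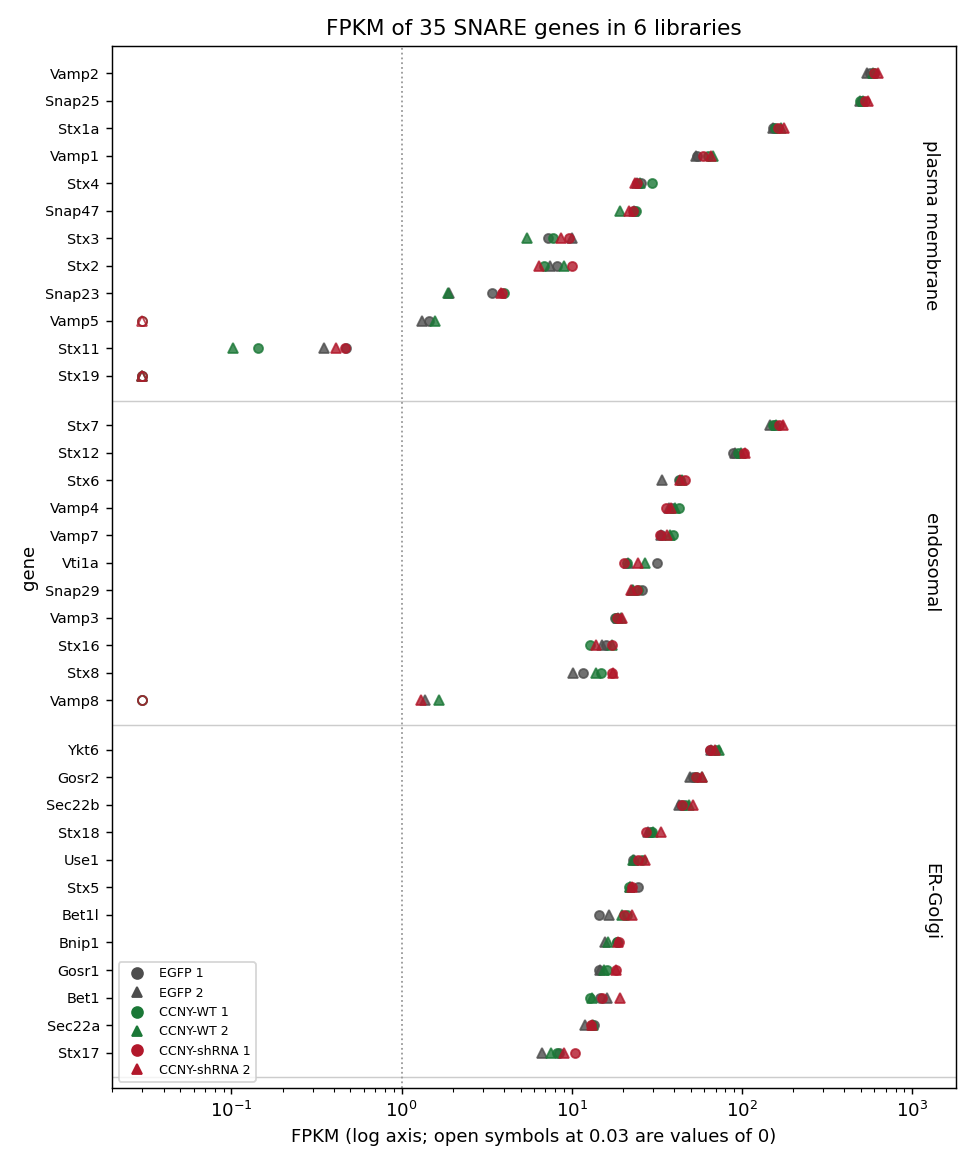
FPKM of 35 SNARE genes on a log axis, 1 point per library, with colour for the condition and symbol for the replicate, ordered by level within each compartment; the dotted line is an FPKM of 1 and open symbols stand for values of 0. Vamp2 and Snap25 lie near 500 FPKM or above, and only Vamp5, Vamp8, Stx11 and Stx19 reach under 1.

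Precision followed level. Of the 28 tested members with a mean of at least 10 FPKM, 23 had no replicate difference above 0.3 on the log2 scale, and the median of the largest difference was 0.17. For the 6 tested members under 10 FPKM this median was 0.64. Snap23 was the extreme among genes detected everywhere, at 3.41 and 1.89 FPKM in EGFP and 3.97 and 1.88 in CCNY-WT.

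Knockdown of CCNY was compared first with EGFP, to see whether SNAREs of one membrane system differed when CCNY was low. Of the 36 members, 34 passed the filter (2 or more libraries at or above an FPKM of 1) and were tested with 10188 genes in all. Stx11 and Stx19 were not. One gene, Stx8, rose past an adjusted p of 0.05, which is 1 of 34 members against 0.167% of all genes tested, and 0 members fell, against 0.579%. At an unadjusted p under 0.05, 9 members lay higher and 0 lower, against 9.2% and 9.36% of all genes. The 9 were spread evenly, 3 in each compartment: Stx1a, Vamp1 and Vamp2 at the plasma membrane, Stx7, Stx8 and Stx12 on endosomes, and Bet1l, Gosr1 and Stx17 in the ER-Golgi group. Past the log2 threshold of 0.33 that the study set for knockdown, 4 members lay higher (Bet1l, Snap23, Stx17 and Stx8) and 1 lower (Vamp5), against 5.52% and 7.59% of all genes.

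**Figure D2:**
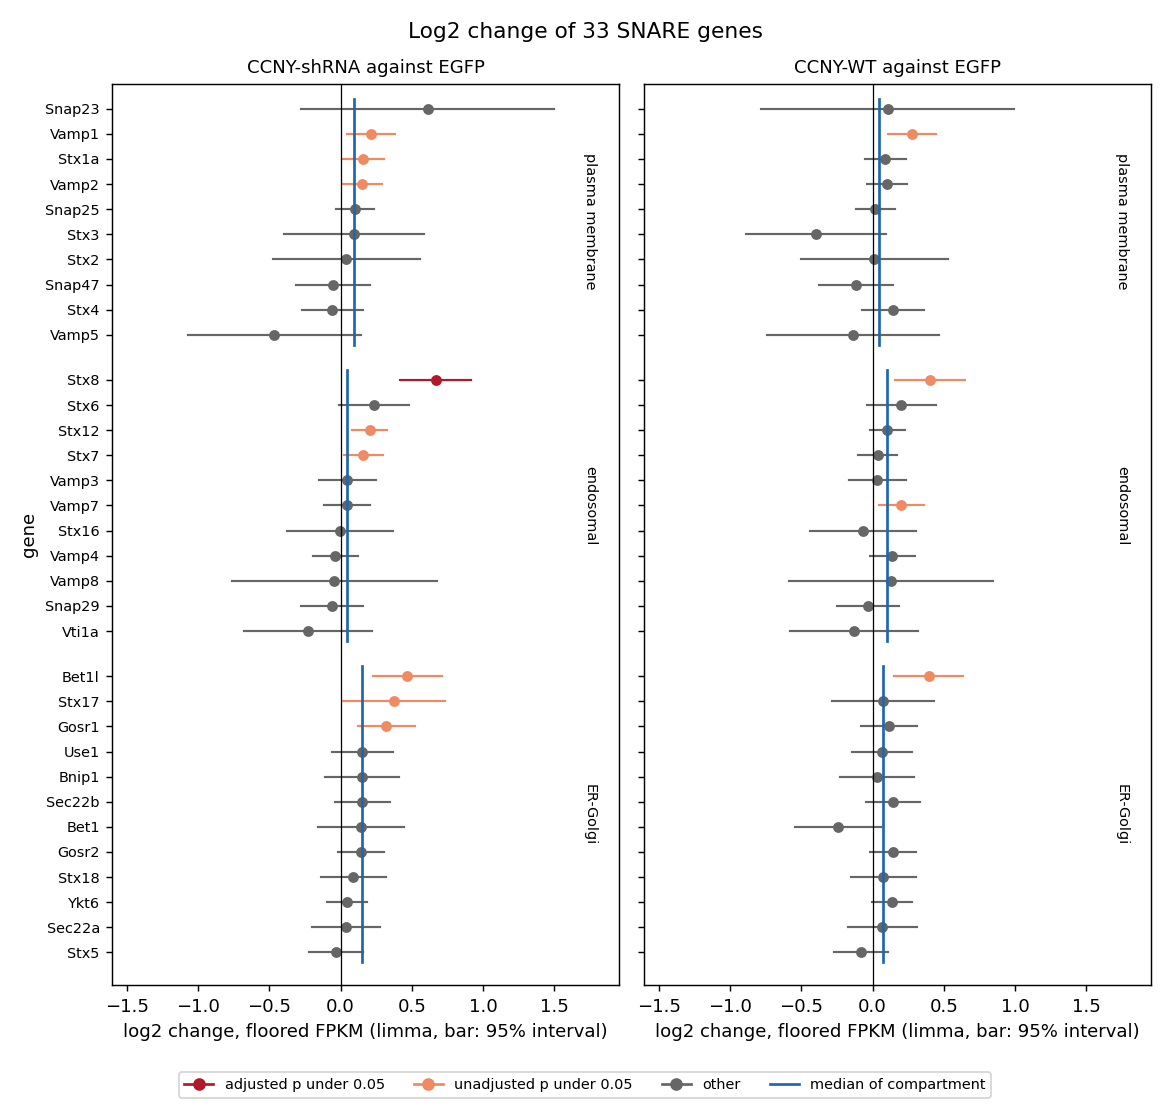
Log2 change of 33 tested members from EGFP in CCNY-shRNA (left) and CCNY-WT (right), from limma on FPKM floored to 1, with 95% intervals as bars and the median of all tested members of each compartment as a vertical line. Stx8 is the only gene past the adjusted threshold, in CCNY-shRNA, and the ER-Golgi median there is 0.15.

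Stx8 encodes a Qc-SNARE of late endosomes that assembles with syntaxin 7, Vti1b and VAMP8. It was listed at 11.7 and 10.2 FPKM with EGFP alone, 14.9 and 13.9 with CCNY-WT, and 17.1 and 17.5 with CCNY-shRNA. The 3 conditions did not overlap, with EGFP lowest and CCNY-shRNA highest. The mean was 10.9 ± 1.04 FPKM with EGFP alone and 17.3 ± 0.267 with CCNY-shRNA (SD, n = 2). This was a log2 change of 0.67 ± 0.11 (SE, limma, adjusted p = 0.0441), or 1.59-fold. Its change in CCNY-WT was 0.40 ± 0.11 in the same direction and did not pass (limma, adjusted p = 0.645). The call in CCNY-shRNA was close to the threshold: leaving out any library raised the limma adjusted p to between 0.1002 and 0.337, while the log2 change stayed between 0.57 and 0.76, and fitting the replicate number as a block gave 0.0622.

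Stx7, the Qa-SNARE of the same complex, was far more abundant, at 157 and 147 FPKM with EGFP alone, 153 and 159 with CCNY-WT, and 165 and 175 with CCNY-shRNA. Only the CCNY-shRNA libraries lay apart from EGFP, and the log2 change of 0.16 ± 0.06 did not pass (limma, adjusted p = 0.204). The ratio of Stx7 to Stx8 was accordingly 13.5 and 14.4 with EGFP alone, 10.2 and 11.4 with CCNY-WT, and 9.64 and 9.98 with CCNY-shRNA. Vamp8, the R-SNARE of the complex, was listed at 0 in replicate 1 of every condition and at 1.38, 1.65 and 1.30 FPKM in replicate 2 of EGFP, CCNY-WT and CCNY-shRNA. Multiplied by the relative depth these were 1.503, 1.538 and 1.496, nearly the same value in 3 libraries, so Vamp8 lay at the lower end of what the libraries could detect and no difference could be read from it.

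Early and recycling endosomes use Stx12 (syntaxin 12/13) with Vti1a, Stx6 and Vamp4. Stx12 was listed at 88.8 and 90.9 FPKM with EGFP alone, 94.4 and 99.0 with CCNY-WT, and 102 and 105 with CCNY-shRNA. The libraries of the 3 conditions did not overlap, in the order EGFP, CCNY-WT, CCNY-shRNA. The log2 change in CCNY-shRNA was 0.20 ± 0.05 (limma, adjusted p = 0.114). Stx6, a Qc-SNARE of the trans-Golgi network and early endosomes, was at 42.7 and 33.9 FPKM with EGFP alone, 43.1 and 44.5 with CCNY-WT, and 46.3 and 43.1 with CCNY-shRNA. EGFP replicate 2 alone was low, and the change of 0.23 ± 0.11 did not pass (limma, adjusted p = 0.292).

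The remaining endosomal members did not separate the CCNY-shRNA libraries from those of EGFP, while Vamp4 and Vamp7 were highest in both CCNY-WT libraries. Vamp4, an R-SNARE of the trans-Golgi network, was at 38.6 and 37.2 FPKM with EGFP alone, 43.0 and 40.5 with CCNY-WT, and 35.8 and 38.2 with CCNY-shRNA. Vti1a, its Qb partner, was at 31.8 and 21.4 with EGFP alone, 21.2 and 26.8 with CCNY-WT, and 20.3 and 24.4 with CCNY-shRNA. Vamp4 was highest in CCNY-WT, whereas for Vti1a the pair of EGFP libraries spanned nearly the whole range. Stx16, the Qa-SNARE of the trans-Golgi network, was at 15.9 and 15.1 FPKM with EGFP alone, 12.8 and 17.2 with CCNY-WT, and 17.2 and 13.9 with CCNY-shRNA, so that all its conditions overlapped. Snap29, which serves autophagosome to lysosome fusion, was at 25.9 and 22.6 with EGFP alone, 24.5 and 22.9 with CCNY-WT, and 24.0 and 22.4 with CCNY-shRNA. Its change in CCNY-shRNA was -0.06, with a 95% interval from -0.28 to 0.16. Vamp3, cellubrevin of recycling endosomes, stayed between 17.9 and 19.6 FPKM in all libraries, with an interval from -0.15 to 0.25. Vamp7, a longin-domain R-SNARE of late endosomes and lysosomes, was at 33.6 and 33.6 FPKM with EGFP alone, 39.4 and 38.0 with CCNY-WT, and 33.2 and 36.1 with CCNY-shRNA, higher in CCNY-WT than in any other library.

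At the plasma membrane, the CCNY-shRNA libraries of Vamp2, Snap25, Vamp1 and Stx1a lay slightly above those of EGFP, with none of these genes past the adjusted threshold. Vamp2, synaptobrevin 2 of synaptic vesicles, was at 568 and 540.4 FPKM with EGFP alone, 597 and 593 with CCNY-WT, and 599 and 630.4 with CCNY-shRNA. Snap25, its Qbc partner, was at 505 and 495 with EGFP alone, 497 and 518 with CCNY-WT, and 526 and 548 with CCNY-shRNA. Both were highest in CCNY-shRNA, by a log2 change of 0.15 ± 0.06 (limma, adjusted p = 0.247) and 0.10 ± 0.06 (limma, adjusted p = 0.386). Vamp1, the second synaptobrevin, was at 54.6 and 53.4 FPKM with EGFP alone, 63.2 and 67.9 with CCNY-WT, and 59.2 and 66.2 with CCNY-shRNA. Both manipulated groups lay above EGFP and overlapped each other, with changes of 0.28 ± 0.07 in CCNY-WT (limma, adjusted p = 0.645) and 0.21 ± 0.07 in CCNY-shRNA (limma, adjusted p = 0.178).

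Stx1a, a syntaxin of transmitter release, was at 153 and 153 FPKM with EGFP alone, 157 and 169 with CCNY-WT, and 163 and 178 with CCNY-shRNA. Every CCNY-WT and CCNY-shRNA library lay above both EGFP libraries, which were nearly identical. The change was 0.09 ± 0.06 in CCNY-WT (limma, adjusted p = 0.813) and 0.16 ± 0.06 in CCNY-shRNA (limma, adjusted p = 0.236).

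The plasma membrane SNAREs of general exocytosis were lower and less precise. Stx4, of constitutive and regulated exocytosis, ranged from 23.6 to 29.7 FPKM and Snap47 from 19.1 to 23.9, and in both the CCNY-shRNA libraries lay just under those of EGFP, with changes of -0.06 and -0.05. Stx2 ranged from 6.46 to 9.98 FPKM and Stx3 from 5.47 to 10.04, with overlapping groups in CCNY-shRNA. Snap23, the widely expressed homologue of SNAP-25, reached 3.91 and 3.85 FPKM in CCNY-shRNA against 3.41 and 1.89 in EGFP, a change of 0.61 whose 95% interval ran from -0.27 to 1.498. Vamp5, an R-SNARE best known from muscle, was at 1.45 and 1.31 FPKM in EGFP, 0 and 1.57 in CCNY-WT and 0 in both CCNY-shRNA libraries. Its values above 0 became 1.45, 1.43 and 1.46 after multiplication by relative depth, as near to each other as those of its chromosomal neighbour Vamp8, so its absence was not distinguishable from a level at the limit of detection. Stx11, known from blood cells, was listed at 0.475 and 0.348 FPKM with EGFP alone, 0.143 and 0.102 with CCNY-WT, and 0.464 and 0.411 with CCNY-shRNA. These fitted as few as 1 to 5 fragments, the fewest in CCNY-WT, and were not tested. Stx19, of epithelia, was listed at 0 in all libraries.

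In the ER-Golgi group, 0 members passed the adjusted threshold in CCNY-shRNA, although 11 of 12 had a fitted change above 0, against 50% of all genes. Bet1l (GS15), a Qc-SNARE within the Golgi, was at 14.5 and 16.6 FPKM with EGFP alone, 21.1 and 19.8 with CCNY-WT, and 20.3 and 22.7 with CCNY-shRNA. Both manipulated groups lay clear of EGFP and overlapped each other. The log2 change was 0.47 ± 0.10 in CCNY-shRNA (limma, adjusted p = 0.0832) and 0.39 ± 0.10 in CCNY-WT (limma, adjusted p = 0.645). Gosr1 (GS28), its Qb partner, was at 14.4 and 14.7 FPKM with EGFP alone, 16.0 and 15.5 with CCNY-WT, and 18.2 and 18.2 with CCNY-shRNA. Its replicates were among the closest of the family and its 3 conditions were separate, with a change of 0.32 ± 0.09 in CCNY-shRNA (limma, adjusted p = 0.118). Stx5 and Ykt6 complete the complex. Stx5, the Qa-SNARE, was at 24.4 and 22.0 FPKM with EGFP alone, 21.8 and 22.0 with CCNY-WT, and 22.7 and 22.7 with CCNY-shRNA, and Ykt6, a lipid-anchored R-SNARE, at 64.5 and 66.1, 70.0 and 73.8, and 65.2 and 69.7 in the same order. Neither differed beyond its spread in CCNY-shRNA, with 95% intervals from -0.22 to 0.16 for Stx5 and from -0.10 to 0.19 for Ykt6.

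For transport from the ER to the Golgi, Stx5 pairs with Gosr2 (membrin), Bet1 and Sec22b. Gosr2 was at 51.5 and 49.8 FPKM with EGFP alone, 53.4 and 58.3 with CCNY-WT, and 53.9 and 58.0 with CCNY-shRNA. Sec22b was at 43.6 and 42.6 with EGFP alone, 46.5 and 48.9 with CCNY-WT, and 44.3 and 51.9 with CCNY-shRNA. In both genes each manipulated library lay above both EGFP libraries, with CCNY-shRNA changes of 0.14 and 0.15 (limma, adjusted p = 0.312 and 0.370). Bet1 was listed at 14.7 and 16.1 FPKM with EGFP alone, 12.8 and 13.2 with CCNY-WT, and 15.1 and 19.2 with CCNY-shRNA. It was lowest in both CCNY-WT libraries, with a change there of -0.24 ± 0.13 (limma, adjusted p = 0.773). The ratio of Bet1l to its relative Bet1 was 0.987 and 1.03 with EGFP alone, 1.65 and 1.49 with CCNY-WT, and 1.35 and 1.18 with CCNY-shRNA.

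The SNAREs of return transport to the ER, Stx18, Bnip1 (Sec20) and Use1, did not pass in CCNY-shRNA (limma, adjusted p = 0.673, 0.508 and 0.413). Stx18 was at 28.7 and 28.0 FPKM with EGFP alone, 29.7 and 30.05 with CCNY-WT, and 27.3 and 33.3 with CCNY-shRNA. Bnip1 was at 18.5 and 15.6 with EGFP alone, 18.4 and 16.3 with CCNY-WT, and 19.0 and 18.7 with CCNY-shRNA. Use1 was at 23.1 and 23.2 with EGFP alone, 25.7 and 22.8 with CCNY-WT, and 24.4 and 27.1 with CCNY-shRNA. The CCNY-shRNA libraries lay above those of EGFP for Bnip1 and Use1 but straddled them for Stx18, and the log2 changes were 0.15, 0.15 and 0.09. Stx17, which moves from the ER to autophagosomes, was the weakest of the group, at 8.43 and 6.69 FPKM with EGFP alone, 8.23 and 7.59 with CCNY-WT, and 10.4 and 9.06 with CCNY-shRNA. The change of 0.37 ± 0.15 in CCNY-shRNA did not pass (limma, adjusted p = 0.250). Its partners in autophagosome fusion, Snap29 and Vamp8, had changes of -0.06 and -0.04. Sec22a, of the ER, stayed between 11.96 and 13.5 FPKM.

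**Figure D3:**
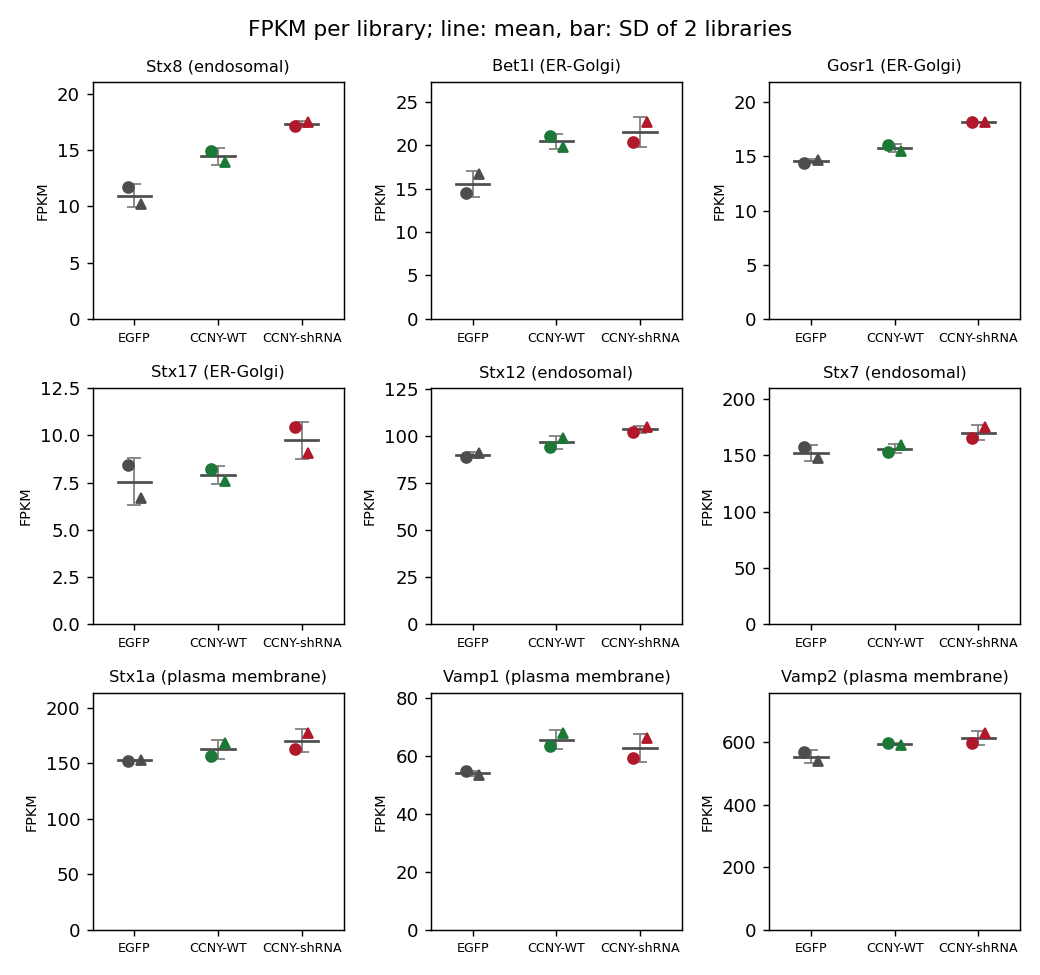
FPKM of the 9 members that lay past an unadjusted p of 0.05 when CCNY-shRNA was compared with EGFP, 1 point per library, with the mean as a line and the SD of the 2 libraries as a bar; all axes start at 0. Stx8 goes from 11.7 and 10.2 FPKM in EGFP to 17.1 and 17.5 in CCNY-shRNA, whereas the others differ by smaller factors.

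By compartment, the median log2 change in CCNY-shRNA was 0.15 for ER-Golgi, 0.094 for plasma membrane and 0.043 for endosomal members, beside 0.00 for all genes tested. A fitted change above 0 was found for 11 of 12 ER-Golgi, 7 of 11 plasma membrane and 6 of 11 endosomal members, 24 of 34 in all, against 50% of all genes. Both CCNY-shRNA libraries lay above both EGFP libraries for 16 members (7 ER-Golgi, 5 plasma membrane and 4 endosomal), against 23.9% of all genes, and below them for 3 (Snap47, Stx4 and Vamp5), against 24.5%. These counts describe the members, and the difference between compartments was not tested, since genes are not replicates of a condition. They also depend on the grouping. Stx6, Stx16, Vamp4 and Vti1a of the trans-Golgi network, counted as endosomal, had changes of 0.23, -0.005, -0.04 and -0.23 in CCNY-shRNA. No alternative counted them with the ER-Golgi group.

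The height of the ER-Golgi median rested largely on CCNY-shRNA replicate 2. In that library all 12 ER-Golgi members lay above their mean over the 6 libraries, with a median deviation of 0.14 on the log2 scale, against 0.003 in CCNY-shRNA replicate 1. The median change was 0.23 without replicate 1 and 0.057 without replicate 2. EGFP replicate 2 had the lowest ER-Golgi median, at -0.12, against -0.05 in EGFP replicate 1. Over all genes tested the median deviation lay within 0.01 of 0 in every library. What set these libraries apart in the ER-Golgi group was not tested.

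**Figure D4:**
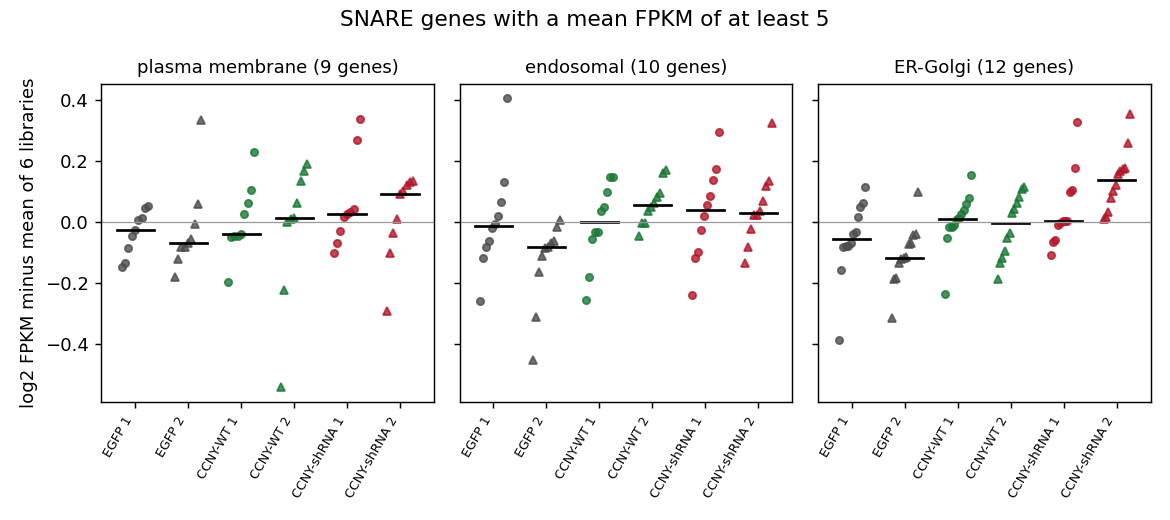
Log2 FPKM of each member with a mean FPKM of at least 5, minus its mean over the 6 libraries, by library and compartment; each point is a gene and each line the median. In CCNY-shRNA replicate 2 all 12 ER-Golgi points lie above 0 (median 0.14), while replicate 1 of the same condition is centred near 0.

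Overexpression of CCNY was compared with the same EGFP libraries, so the comparisons share their control, and the values of both stand side by side above. By limma, 0 of 34 members passed an adjusted p of 0.05, against 0.00982% of all genes in the higher and 0% in the lower direction. At an unadjusted p under 0.05, 4 members lay higher (Bet1l, Stx8, Vamp1 and Vamp7), against 3.83% of all genes, and 0 lower, against 3%. Past the study's log2 threshold of 0.3 for overexpression, Bet1l and Stx8 lay higher and Stx3 lower, against 4.59% and 3.76%. Stx3 was at 7.25 and 10.04 FPKM with EGFP alone, 7.71 and 5.47 with CCNY-WT, and 9.58 and 8.65 with CCNY-shRNA, and its change in CCNY-WT was -0.39 ± 0.21 with overlapping groups (limma, adjusted p = 0.778). Vamp7 had a change of 0.20 ± 0.07 in CCNY-WT (limma, adjusted p = 0.724) and 0.04 ± 0.07 in CCNY-shRNA (limma, adjusted p = 0.790), and CCNY-shRNA differed from CCNY-WT by -0.16 ± 0.07 (limma, adjusted p = 0.415). Both CCNY-WT libraries lay above both EGFP libraries for 14 members, against 20.3% of all genes, and below them for Bet1 alone, against 19.2%. The medians were 0.10 for endosomal, 0.075 for ER-Golgi and 0.047 for plasma membrane members, beside 0.004 for all genes, and the ER-Golgi median was 0.14 without EGFP replicate 1. Of the members, 26 of 34 had a fitted change above 0, against 51.3%.

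Between the manipulated conditions, 0 members passed in limma, against 0.0196% of all genes higher in CCNY-shRNA than in CCNY-WT and 0.196% lower. At an unadjusted p under 0.05, Bet1, Gosr1 and Stx8 were higher, against 5.05%, and Vamp4 was lower, against 7.12%. The count of higher members was 0 without CCNY-WT replicate 2 and 0 without CCNY-shRNA replicate 2. The count of lower members was 0 without either EGFP library or without CCNY-shRNA replicate 1, and 2 without CCNY-WT replicate 2 or CCNY-shRNA replicate 2. Bet1 differed most of these, by 0.39 ± 0.13 (limma, adjusted p = 0.316). Stx8 differed by 0.26 ± 0.11 (limma, adjusted p = 0.386), Gosr1 by 0.21 ± 0.09 (limma, adjusted p = 0.398) and Vamp4 by -0.17 ± 0.07 (limma, adjusted p = 0.376). The groups did not overlap for 11 members higher, against 20.3% of all genes, and for 5 lower (Sec22a, Stx4, Vamp4, Vamp7 and Ykt6), against 21.9%. Compartment medians were 0.062 for ER-Golgi, 0.046 for plasma membrane and 0.013 for endosomal members, and 23 of 34 members had a fitted difference above 0, against 50.4% of all genes.

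The genes that act on SNAREs were examined as lists of 65 genes, of which 58 had a row and 52 were tested. In CCNY-shRNA, 1 fell past an adjusted p of 0.05 in limma, against 0.579% of all genes tested, and 0 rose, against 0.167%. In CCNY-WT 0 passed in either direction, against 0% of all genes lower and 0.00982% higher. Doc2b, a calcium sensor for spontaneous and asynchronous release, was at 14.4 and 15.4 FPKM with EGFP alone, 12.9 and 14.2 with CCNY-WT, and 8.63 and 9.71 with CCNY-shRNA. The CCNY-shRNA libraries lay below the other 4, and the log2 change from EGFP was -0.70 ± 0.11 (limma, adjusted p = 0.0456). That call was lost in each of the 6 fits that left out a library (limma, adjusted p from 0.105 to 0.343). Its relative Doc2a was at 20.9 and 22.9, 20.5 and 21.1, and 18.3 and 18.9 FPKM in the same order, with a change of -0.24 ± 0.08 (limma, adjusted p = 0.195).

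Among the SM proteins, 8 tested, Stxbp2 (Munc18-2) was at 1.65 and 1.91 FPKM with EGFP alone, 2.16 and 2.42 with CCNY-WT, and 2.97 and 2.33 with CCNY-shRNA, a change of 0.57 ± 0.21 in CCNY-shRNA (limma, adjusted p = 0.198). Scfd2, of the same family, was at 9.04 and 8.28 FPKM with EGFP alone, 7.58 and 7.26 with CCNY-WT, and 7.33 and 6.21 with CCNY-shRNA, a change of -0.36 ± 0.14 in CCNY-shRNA (limma, adjusted p = 0.219). In CCNY-shRNA the median over the 8 was -0.037, and 3 had a change above 0, against 50% of all genes. Of the regulators of synaptic fusion, Stxbp6 (amisyn) was at 6.92 and 7.82 FPKM with EGFP alone, 9.23 and 11.2 with CCNY-WT, and 7.56 and 7.14 with CCNY-shRNA, the smallest p of the lists in CCNY-WT (log2 change 0.47 ± 0.14, limma, adjusted p = 0.724). Stxbp5l (tomosyn-2), an inhibitor of SNARE assembly, was at 17.7 and 18.1, 16.8 and 15.5, and 14.8 and 15.3 FPKM, with a change of -0.25 ± 0.09 in CCNY-shRNA (limma, adjusted p = 0.200).

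The 4 genes of SNARE disassembly, Nsf, Napa, Napb and Napg, all had fitted changes above 0 in CCNY-shRNA, against 50% of all genes. The changes ran from 0.05 to 0.14, with a median of 0.11, and 0 had an unadjusted p under 0.05 (limma). Of the 14 tested regulators of synaptic fusion, among them synaptotagmins, complexins and Doc2 proteins, 3 had a change above 0, against 50% of all genes, and the median was -0.08. At an unadjusted p under 0.05, 4 of them (Doc2a, Doc2b, Stxbp5l and Syt7) lay lower, against 9.36% of all genes, and 0 higher, against 9.2%. Unc13a, a priming factor of release that hippocampal neurons use, was listed at 0 in all libraries, and its value is not read as absence. The tethering complexes (exocyst, HOPS and CORVET, GARP and EARP, COG and NRZ) had 26 genes tested and a median of 0.01. Of these, 0 were called, against 0.167% of all genes higher and 0.579% lower. The 3 GARP and EARP genes had changes between 0.09 and 0.13. All 3 were higher in both CCNY-shRNA libraries than in both EGFP libraries, as were 23.9% of all genes. Their unadjusted p-values (limma) were 0.0687 for Vps52, 0.251 for Vps53 and 0.399 for Vps54.

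Markers of the cells in the culture are given beside these results. Of 9 tested astrocyte markers, 2 had a fitted change above 0 in CCNY-shRNA against EGFP, against 50% of all genes, and the median was -0.20. At an unadjusted p under 0.05 (limma), 3 lay lower, against 9.36% of all genes, and 0 higher, against 9.2%. Of the 9, 0 were called, against 0.579% of all genes lower and 0.167% higher. Their summed FPKM was 540.3 and 580.3 with EGFP alone, 573 and 567 with CCNY-WT, and 472 and 545 with CCNY-shRNA. The 12 neuron markers had a median of -0.07 in CCNY-shRNA, and 3 had a fitted change above 0, against 50% of all genes. At an unadjusted p under 0.05 (limma), Tubb3 lay higher, against 9.2% of all genes. Gad2, Camk2a (log2 change -0.18) and Syn1 (-0.13) lay lower, against 9.36%. Gad2 alone was called, against 0.579% of all genes lower and 0.167% higher. The summed level of the 12 was 4955 and 4992 with EGFP alone and 4922 and 4788 with CCNY-shRNA. Gad2, the glutamate decarboxylase of inhibitory neurons, was at 170.4 and 173 FPKM with EGFP alone and 129.5 and 129 with CCNY-shRNA (log2 change -0.41 ± 0.05, limma, adjusted p = 0.0226), a call lost in each fit that left out a library (limma, adjusted p from 0.0767 to 0.316). Gad1, the other glutamate decarboxylase, was at 189.2 and 188.4 FPKM with EGFP alone and 183.3 and 187.1 with CCNY-shRNA, a change of -0.028 ± 0.050 (limma, adjusted p = 0.813). Tubb3, a tubulin of neurons, lay at 608 and 601 FPKM with EGFP alone and at 674.5 and 679.6 with CCNY-shRNA, a change of 0.16 ± 0.06 (limma, adjusted p = 0.193). The part of these differences in those of the SNARE genes was not tested.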

How the data were processed

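The authors prepared stranded poly(A) libraries, aligned the reads to rn4 and computed expression with Cufflinks, and deposited 1 FPKM value per gene and library. The submitters' processing notes name SAMtools 0.1.19, Bowtie2 2.1.0, TopHat2 2.0, Cufflinks 2.2.1 and R 3.1.0. Scaling between libraries and the annotation are not given in the sources used here. FPKM values were floored to 1, as in the study, and log2-transformed, which understates the change of genes near 1. Genes at or above an FPKM of 1 in at least 2 of the 6 libraries were tested with limma 3.58.1 in R 4.3.3 (lmFit, contrasts.fit, eBayes with a trend, two-sided), with Benjamini-Hochberg adjustment over all 10188 genes tested and a threshold of 0.05. Unadjusted p-values are from the same fit. The model code was run on simulated data with normal errors whose spread followed the trend with level. That setting is simpler than these libraries, so the run does not show how reliable the calls are here. Relative depths came from 1113 weak genes, of which 86.9% fitted whole numbers of at most 5 fragments within 0.02. No counting interval follows from relative depths.

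Members were taken by symbol, and all 36 symbols are current RefSeq symbols. Compartments, partner lists and marker lists came from general knowledge, and several members act on more than one membrane. Members, lists and tests were chosen with earlier results of these data known. Members are named except 1 that is counted but not reported here, and values in every library are given for those past a p threshold against EGFP or in a textbook complex. Of the partner lists, genes called and the 3 with the smallest p in each comparison with EGFP are named. Nsf, Napa, Napb, Napg, Syt7, Scfd2, Unc13a, Vps52, Vps53, Vps54, Camk2a, Syn1, Gad1, Gad2, Tubb3, Slc1a3 and Lum were named after values were seen. Upstream sequences came from RefSeq on GRCr8, not the build of the alignment, and served for letters only. The alternatives were other offsets, filters, scalings and spread estimates, a replicate block, other compartment assignments and leaving out each library.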

Additional observations from a re-analysis of the deposited data

Results flagged for a closer look

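Vps11, a core subunit of the HOPS and CORVET tethers that work with endosomal SNAREs, was noted because its CCNY-WT and CCNY-shRNA libraries lay on opposite sides of EGFP. It was at 20.7 and 20.7 FPKM with EGFP alone, 20.7 and 20.5 with CCNY-WT, and 21.4 and 22.6 with CCNY-shRNA. The log2 difference between CCNY-shRNA and CCNY-WT was 0.094, with a 95% interval from -0.087 to 0.27, and did not pass (limma, adjusted p = 0.698). The separation of EGFP from CCNY-WT was far smaller than the difference between the CCNY-shRNA replicates. Vps11 was not alone in this placement. Among the cell markers, Gad1, Gad2, Slc1a3 and Lum had CCNY-WT libraries above and CCNY-shRNA libraries below those of EGFP. Their log2 differences between CCNY-shRNA and CCNY-WT were larger in size, at -0.12, -0.46, -0.32 and -0.29. The share of all genes placed in this way was not counted. No SNARE member was noted by the same criterion, and groups of 2 libraries are too small for a check of single outlying libraries.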

How the results depend on the processing

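The Stx8 call in CCNY-shRNA held with other offsets, the filter on mean FPKM and both scalings (limma, adjusted p from 0.0357 to 0.0461). The number of members called was 0 with no filter, without the trend, with the 4 libraries of the comparison only and in all 6 fits that left out a library (range 0 to 0), with adjusted p = 0.146, 0.143, 0.187 and, over the last, 0.1002 to 0.337. Over all genes, 76 were called, but 2 with no filter, 1 without the trend, 1 with 4 libraries and 1 to 7 with a library left out, so fewer calls were made overall. In fits added after seeing the data, the Doc2b and Gad2 calls were lost under those same settings (limma, adjusted p from 0.105 to 0.343 and from 0.0717 to 0.316), and that of Doc2b also with upper quartile scaling (adjusted p = 0.05003) and the replicate block (adjusted p = 0.0547). The members at an unadjusted p under 0.05 and higher in CCNY-shRNA were 9, but 5 without the trend, 4 without EGFP replicate 2 and 5 without CCNY-shRNA replicate 2. Between CCNY-shRNA and CCNY-WT, 3 were higher, but 5 with upper quartile scaling, and 1 was lower, but 0 without the trend or with 4 libraries and 2 with no filter or the replicate block.

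Whether replicate numbers pair the libraries is not known. Same-numbered deviations correlated at 0.14 between EGFP and CCNY-WT, -0.03 between EGFP and CCNY-shRNA and 0.14 between CCNY-WT and CCNY-shRNA (8055 genes). These correlations are weak and differ in sign, so they cannot decide it. With the replicate number as a block, 0 members were called in CCNY-shRNA (Stx8 adjusted p = 0.0622) and 39 genes in all; the block changed no other member's call.

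The plasma membrane median in CCNY-shRNA was 0.043 with quantile normalization, and the endosomal median -0.0048 with Vamp3 and Vamp7 counted at the plasma membrane. Leaving out each library gave medians in CCNY-shRNA against EGFP of 0.057 to 0.23 for ER-Golgi, -0.00019 to 0.10 for endosomal and 0.020 to 0.10 for plasma membrane members. In CCNY-WT against EGFP the ER-Golgi range was 0.065 to 0.14, the endosomal range 0.018 to 0.14 and that of the plasma membrane 0.0062 to 0.097. Between CCNY-shRNA and CCNY-WT the ranges were 0.0014 to 0.14 for ER-Golgi, -0.027 to 0.072 for endosomal and 0 to 0.046 for plasma membrane members. The cause was not tested. The ER-Golgi median was the highest in 14 of 15 alternative fits in CCNY-shRNA against EGFP. It was so in 13 of 15 against CCNY-WT, and in 3 of 15 for CCNY-WT against EGFP. These fits kept the compartments and reused the same libraries, so their number is no measure of support for the order. The changes of Stx8, Doc2b and Gad2 from EGFP in CCNY-shRNA kept their sign in every alternative run. With 2 libraries a condition and unknown depth, members under 10 FPKM are measured poorly.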
